A study of Mus musculus with 5 samples.

Results

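Chromatin regulators, histones and high mobility group (HMG) proteins were compared between the retina of adult C57/B6 mice and the cortex of Swiss-Webster mice at postnatal day 1. Genes were taken by symbol, as histone and HMG genes, deacetylases, methyltransferases, demethylases, acetyltransferases, remodelling ATPases and their subunits, Polycomb, DNA methylation and PHD finger genes. The rule found 147 genes on 226 probes, and 146 of them were measured, of 8798 genes measured in all. The single unmeasured member was the demethylase Kdm1b, whose 1 probe had a value on 4 arrays only. RNA of each tissue was aliquoted from 1 pool, and the same 2 pools were hybridised together to 5 two-colour Agilent arrays. Retina carried Cy5 and cortex Cy3 on every array, so tissue, age, strain and dye changed together and cannot be told apart. The arrays are technical replicates: the p-values below measure labelling and hybridisation error and not the spread between animals. In RNA of whole tissue, fewer cells of a type and less RNA per cell cannot be told apart.

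Values are log2 ratios of retina over cortex, given as mean ± SD over n = 5 arrays. The base of the deposited logarithm and the direction of the ratio are likely, not stated. With the other direction every sign below would turn, and the photoreceptor genes checked below would be lower in retina. The values were read as log10, and if they were log2 instead, 0 members and 0 other chromatin genes would pass the 2-fold test of limma described next, also at an unadjusted p under 0.05, so all calls and folds below rest on that reading. The words higher and lower are kept for genes that passed limma's test against a minimum of 2-fold, which is a log2 ratio of 1, with p-values adjusted by the Benjamini-Hochberg method over all 8798 genes and a threshold of 0.05. The labelled tissues were checked against defining markers. All 4 measured photoreceptor genes of 17 listed were higher, at 2.97 to 4.30, and 5 of 6 measured genes of newborn cortical neurons were lower, down to -3.99.

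Chromatin is built of nucleosomes, in which DNA is wrapped around core histones, with linker histones between them. HMG proteins bind nucleosomes or bend DNA, writers and erasers add or remove acetyl and methyl groups on histones, readers bind these marks, and remodelling ATPases slide or evict nucleosomes. Polycomb complexes keep genes silent through methylation of histone H3 and through chromobox proteins that bind that mark, while the NuRD and SIN3 complexes carry deacetylases to their targets. Rods of the mouse retina pack their heterochromatin in the centre of the nucleus, an arrangement reached during postnatal maturation, whereas neurons of the newborn cortex are still maturing and glial precursors still divide.

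Promoters of 4 members with ratios far from 0 are shown to set the histone gene beside 2 HMG genes of opposite ratio and a Polycomb gene. They come from RefSeq, assembly GRCm38.p6, and run from 250 bases before to 50 bases after the annotated start, 5′ to 3′ on the gene's strand. Capitals mark matches, on either strand, to 4 motifs. The first is the sequence CCAAT, the box bound by NF-Y. The second is TATAAA, a common form of the TATA box. The third is the octamer ATGCAAAT, found in many histone promoters and bound by POU factors. The last is TAATCC, the core bound by the photoreceptor factors Crx and Otx2. No 2 matches overlap in these windows. H2aw lies at chr11:58954435-58954734 on the plus strand, Hmgn1 at chr16:96127676-96127975 on the minus strand, Cbx7 at chr15:79932597-79932896 on the minus strand and Hmgb3 at chrX:71555667-71555966 on the plus strand.
H2aw: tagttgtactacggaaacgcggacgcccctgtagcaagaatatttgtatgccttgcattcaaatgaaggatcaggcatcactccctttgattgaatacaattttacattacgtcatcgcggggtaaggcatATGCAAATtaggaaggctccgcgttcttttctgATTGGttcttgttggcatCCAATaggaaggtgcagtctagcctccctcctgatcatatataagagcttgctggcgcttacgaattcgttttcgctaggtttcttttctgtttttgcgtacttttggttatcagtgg
Hmgn1: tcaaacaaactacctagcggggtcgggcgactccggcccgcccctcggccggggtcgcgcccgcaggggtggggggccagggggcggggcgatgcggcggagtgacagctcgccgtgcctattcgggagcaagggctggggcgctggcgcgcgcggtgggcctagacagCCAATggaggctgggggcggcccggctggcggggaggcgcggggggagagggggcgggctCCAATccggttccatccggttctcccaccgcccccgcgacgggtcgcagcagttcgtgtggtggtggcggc
Cbx7: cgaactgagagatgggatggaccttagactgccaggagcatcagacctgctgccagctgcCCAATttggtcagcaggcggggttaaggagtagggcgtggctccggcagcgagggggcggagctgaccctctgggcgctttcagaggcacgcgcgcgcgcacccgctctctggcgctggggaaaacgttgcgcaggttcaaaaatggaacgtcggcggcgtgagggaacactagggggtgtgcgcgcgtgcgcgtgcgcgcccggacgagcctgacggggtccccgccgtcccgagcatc
Hmgb3: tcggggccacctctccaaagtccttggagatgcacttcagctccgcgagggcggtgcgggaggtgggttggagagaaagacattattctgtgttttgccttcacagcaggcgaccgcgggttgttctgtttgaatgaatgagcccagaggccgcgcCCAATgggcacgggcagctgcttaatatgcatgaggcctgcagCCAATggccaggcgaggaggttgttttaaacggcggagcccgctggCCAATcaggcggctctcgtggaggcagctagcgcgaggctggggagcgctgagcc
The H2aw promoter held the octamer once and the CCAAT box at 2 places, 1 on each strand. Hmgn1 held 2 CCAAT matches, Cbx7 held 1 and Hmgb3 held 3, and neither TATAAA nor the Crx core was found in the 4 windows. Other forms of the TATA box were not searched, so the run tatataag in the H2aw window is not marked. The octamer was present in 1.74% of all 32851 promoters in the table, the CCAAT box in 37.4%, TATAAA in 13.6% and the Crx core in 7.06%. In promoters of measured genes the octamer was present in 1.22%, TATAAA in 7.36% and the Crx core in 5.43%. Over the 168 promoters of 123 member genes in the table, CCAAT was found in 43.5%, against 37.0% of 9168 promoters of measured genes. The median number of CG dinucleotides was 24.5 in member promoters and 20 in promoters of measured genes. Windows of 1 gene can overlap, so these shares are a description. H2bc4, the member with the highest ratio, had no entry in the table.

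A minority of the chromatin genes differed by over 2-fold between the tissues. Of 146 measured members, 16 passed, namely 10 with more signal in retina and 6 with less. That is 10.96% against a background of 6.63% of all genes. The counts by role below cover few genes each and are to be set beside that background. The higher members made up 6.85%, with 2.8% among all genes, and the lower ones 4.11%, with 3.83% among all genes. The higher genes were the histones H2bc4 and H2aw, the Polycomb genes Cbx7, Cbx8 and Eed, the nucleosome-binding Hmgn1, the acetyltransferase Kat2b, the SWI/SNF subunit Smarcd2, the deacetylase Sirt3 and the methyl-DNA binder Mbd2. The lower genes were the demethylase Kdm2b, the HMG box gene Hmgb3, the NuRD ATPase Chd3, the PHD finger genes Phf20l1 and Phf6, and the arginine methyltransferase Prmt2. Of the 16 calls 62.5% were higher, and with arrays scaled to equal spread it was 75% of 12, since Eed, Phf20l1, Phf6 and Prmt2 no longer passed. The median over all members was 0.10, and over all genes it was 0.00. Against a ratio of 0, 116 members or 79.5% passed, where the background was 73.7% (37% of all genes above 0 and 36.7% below it), so ratios well under 2-fold were resolved.

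**Figure D1:**
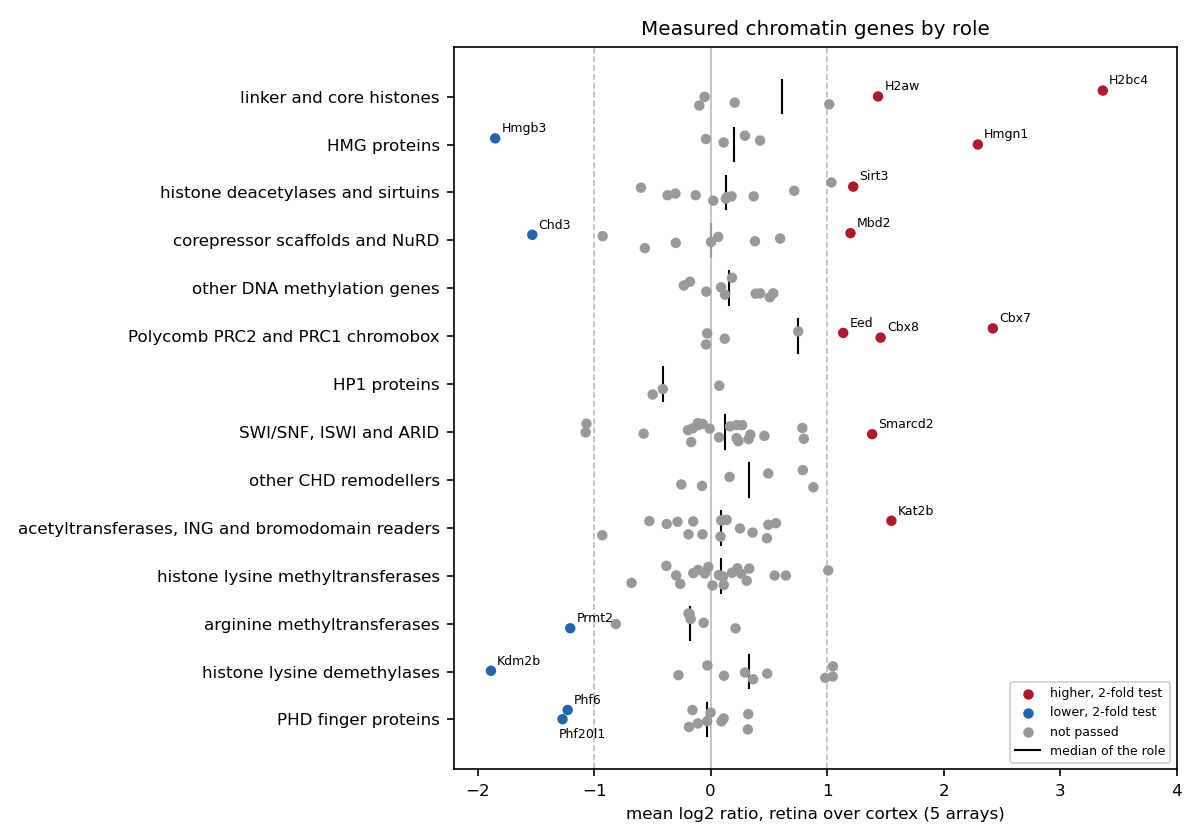
Mean log2 ratio of each of the 146 measured members (x axis) by role (y axis), with a black bar at the median of each role and dashed lines at a 2-fold ratio. The 10 higher members reach 3.37 for H2bc4, the 6 lower ones reach -1.88 for Kdm2b, and most members lie between the dashed lines.

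Of 6 measured histone genes, 2 were higher in retina and none was lower. H2bc4, a core histone gene of the H2B family, read 3.42, 3.38, 3.39, 3.35 and 3.29 on arrays 1 to 5. The arrays lay close together, and the mean of 3.37 ± 0.05 corresponds to a 10.3-fold higher ratio in retina, with an adjusted p of 4.94e-08 in limma's 2-fold test. H2aw, an H2A gene outside the large histone cluster, read 1.37, 1.45, 1.45, 1.41 and 1.51, or 2.71-fold higher (adjusted p = 6.09e-05, limma). Its 5 arrays stood clear of the 2-fold line. H1f8, the oocyte linker histone, read 0.91 to 1.22 around a mean of 1.02 ± 0.13 and did not pass. The replacement histone gene H3f3b stood at 0.21 ± 0.03, as the mean of probes at 0.72 and -0.30. H2ax, whose protein is phosphorylated at DNA breaks, stood at -0.10 ± 0.17. H2aj fell to -0.83 on array 5, where the other arrays spanned -0.05 to 0.31. On every array H2bc4 exceeded H2ax by 3.27 to 3.72 log2 and H2aw exceeded H2ax by 1.35 to 1.79. Core histone genes of 1 family are near-identical in their coding parts, so signal of other H2A or H2B genes in these probes cannot be told apart.

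HMG genes split in both directions. Hmgn1, which binds the nucleosome and loosens compact chromatin, read 2.25, 2.06, 2.50, 2.28 and 2.39, or 4.90-fold higher in retina at 2.29 ± 0.17 (adjusted p = 1.79e-05, limma). Hmgb3, an X-linked gene of the DNA-bending HMG box family, read -1.86, -1.82, -1.79, -1.84 and -1.93. Its mean of -1.85 ± 0.05 was 3.60-fold lower in retina (adjusted p = 2.59e-06, limma), and no array came near the 2-fold line. The relatives of these genes stayed close to 0. Hmgb2, the other measured HMGB gene, stood at 0.29 ± 0.10, Hmgn2 at 0.42 ± 0.10, Hmgn5 at -0.04 ± 0.16 and Hmga2, a fetal AT-hook gene, at 0.11 ± 0.03. The ratio of Hmgb3 minus that of Hmgb2 was -2.22 to -2.03 log2 over the arrays. In the same way Hmgn1 lay 1.64 to 2.02 above Hmgn2 and 2.27 to 2.44 above Hmgn5. These differences set the ratio of one probe against that of another and carry no test.

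Of 7 measured Polycomb genes, 3 were higher in retina and none was lower, with a median of 0.75. Cbx7, a chromobox subunit of Polycomb repressive complex PRC1, read 2.27, 2.58, 2.42, 2.43 and 2.41, or 5.36-fold higher (adjusted p = 1.93e-06, limma). All 5 arrays lay far above the 2-fold line. Cbx8, another chromobox subunit of PRC1, read 1.71, 1.35, 1.38, 1.504 and 1.35, a mean of 1.46 ± 0.15 and 2.75-fold higher (adjusted p = 0.00218, limma). Eed, the PRC2 subunit that binds methylated histone H3, read 1.08, 1.17, 1.18, 1.14 and 1.13. Its mean of 1.14 ± 0.04 lay close to the 2-fold line (adjusted p = 0.0121, limma). The Eed call was lost without array 2, 3 or 4, with adjusted p-values of 0.0513 to 0.0597. The other PRC2 members did not pass. Suz12, which holds PRC2 together, ranged from 0.26 on array 2 to 1.20 on array 5, the PRC2 methyltransferase Ezh1 stood at 0.12 ± 0.03 and the PRC2 inhibitor Ezhip at -0.03 ± 0.09. Cbx2, the chromobox gene that compacts nucleosomes, stood at -0.75 on array 2, where the other arrays spanned -0.05 to 0.32. Cbx7 exceeded Cbx8 by 0.56 to 1.22 log2 and Cbx2 by 1.95 to 3.33. The HP1 genes, whose proteins bind methylated histone H3 in heterochromatin, gave 0 of 3 calls in limma's 2-fold test. At an unadjusted p under 0.05 it was also 0 of 3. The share over all genes was 6.63%, so 0 of 3 does not set the HP1 genes apart. Cbx5 stood at -0.50 ± 0.07, with 4 probes from -1.11 to -0.13, Cbx3 at -0.41 ± 0.05 and Cbx1 at 0.07 ± 0.10.

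**Figure D2:**
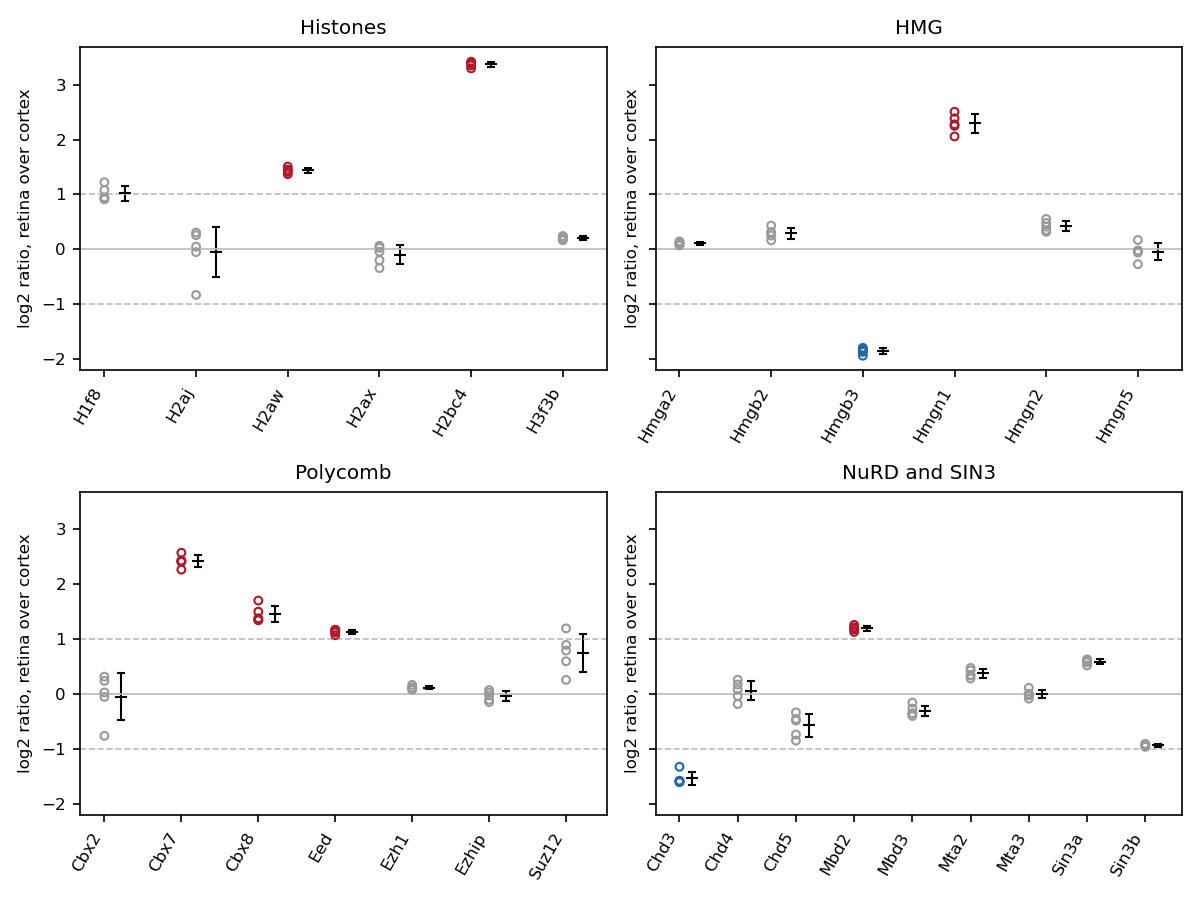
Log2 ratio on each array (circles, y axis) with mean ± SD beside them for histone, HMG, Polycomb, and NuRD and SIN3 genes (x axis); red genes were higher and blue genes lower by the 2-fold test. Single members stand apart from their relatives, such as Hmgb3 at -1.85 beside Hmgb2 at 0.29, and Chd3 at -1.53 beside Chd4 at 0.07.

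Corepressor genes also went both ways. In the group of NuRD and SIN3 genes 1 of 9 was higher and 1 was lower. Chd3, a remodelling ATPase of NuRD, read -1.58, -1.60, -1.57, -1.59 and -1.32, so array 5 stood apart from the other arrays. Its mean was -1.53 ± 0.12 or 2.89-fold lower in retina (adjusted p = 0.00038, limma). Of the alternative NuRD ATPases, Chd4 stood at 0.07 ± 0.17 and the neuronal Chd5 at -0.56 ± 0.21. Chd3 minus Chd4 was -1.84 to -1.29 log2 over the arrays, and Chd3 minus Chd5 was -1.24 to -0.75. Mbd2, a methyl-CpG binding subunit of NuRD, read 1.18, 1.22, 1.14, 1.21 and 1.26, or 2.30-fold higher (adjusted p = 0.00267, limma). Its alternative Mbd3 stood at -0.30 ± 0.10. The NuRD subunits Mta2 (0.38 ± 0.08) and Mta3 (0.00 ± 0.07) did not pass. The SIN3 scaffolds lay on opposite sides of 0, Sin3a at 0.60 ± 0.04 over 4 probes and Sin3b at -0.93 ± 0.02, without passing the 2-fold test. Sin3a exceeded Sin3b by 1.43 to 1.58 log2 on each array.

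Among 12 deacetylases and sirtuins, 1 was higher. Sirt3, a sirtuin that deacetylates proteins in mitochondria rather than histones, read 1.15, 1.31, 1.18, 1.27 and 1.20 (mean 1.22 ± 0.07, adjusted p = 0.00361, limma). Hdac1, a class I deacetylase of the NuRD and SIN3 complexes, came next at 1.04 ± 0.12, with 1 array of 5 below the 2-fold line, and did not pass. Its partner Hdac2 stood at -0.13 ± 0.08, and Hdac3, the deacetylase of the NCoR complex, at -0.30 ± 0.27. Of the class II genes, Hdac5 stood at 0.72 ± 0.18, Hdac4 at 0.02 ± 0.03 and Hdac7 at 0.13 ± 0.10. The tubulin deacetylase Hdac6 had the lowest ratio of the group, -0.60 ± 0.15. The remaining members were Hdac10 (0.14 ± 0.11), Hdac11 (0.18 ± 0.11), Sirt1 (0.37 ± 0.02) and the mitochondrial desuccinylase Sirt5 (-0.37 ± 0.12).

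DNA methylation genes outside NuRD stayed within 2-fold: 0 of 10 passed limma's 2-fold test, and 0 reached an unadjusted p under 0.05. Of all genes 6.63% passed, so 0 calls in 10 genes do not set this role apart. The maintenance methyltransferase Dnmt1 stood at -0.18 ± 0.06, the de novo enzymes Dnmt3a at -0.23 ± 0.11 and Dnmt3b at 0.12 ± 0.09, and their cofactor Dnmt3l at 0.09 ± 0.06. Of the TET dioxygenases, which oxidise methylcytosine, Tet2 stood at -0.04 ± 0.17 and Tet3 at 0.39 ± 0.10. Of the MBD genes, Mbd1 stood at 0.18 ± 0.19, Mbd4 at 0.42 ± 0.32 and Mbd6 at 0.51 ± 0.04. Mbd3l2, named for its likeness to Mbd3, stood at 0.54 ± 0.12. Against a ratio of 0, 8 of these 10 genes passed, or 80%, which is near the 73.7% of all genes.

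The SWI/SNF, ISWI and ARID group was the largest, with 22 measured genes, of which 1 was higher and none was lower. Smarcd2, an accessory subunit of SWI/SNF, read 1.44, 1.43, 1.24, 1.49 and 1.32, or 2.61-fold higher (adjusted p = 0.00101, limma). It exceeded the alternative subunit Smarcd1 (-0.11 ± 0.29) by 1.23 to 2.05 log2. The catalytic subunits, Smarca4 at -0.10 ± 0.09 and Smarca2 at 0.17 ± 0.06, and the core subunits Smarcb1 (-0.07 ± 0.04), Smarcc1 (-0.15 ± 0.03) and Smarcc2 (0.22 ± 0.12) lay near 0. Smarce1, the HMG box subunit of SWI/SNF, read -0.97 to -1.22 around a mean of -1.07 ± 0.09, with 4 of 5 arrays below the 2-fold line, and did not pass (adjusted p = 0.75, limma). The ISWI ATPase Smarca1, X-linked, stood at -1.07 ± 0.10 and its relative Smarca5 at -0.01 ± 0.17. Smarca1 minus Smarca5 was -1.28 to -0.63 over the arrays. The DNA-binding ARID subunits of SWI/SNF, Arid1a (-0.19 ± 0.07), Arid1b (0.27 ± 0.12) and Arid2 (0.07 ± 0.05), did not pass. Among bromodomain partners of ISWI, Baz2b stood at 0.80 ± 0.08, Baz2a at 0.79 ± 0.12 and Baz1b at 0.46 ± 0.06. A further Baz2b probe read -0.83 on 3 arrays and had no value on the other arrays, and with it the gene stood at 0.32. Smarcad1 stood at -0.58 ± 0.22, and the last 5 genes of the group (Arid3b, Arid4a, Arid4b, Arid5b and Smarcal1) ranged from -0.17 to 0.34.

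Of 6 other CHD remodellers, 0 passed limma's 2-fold test and 0 reached an unadjusted p under 0.05. Among all genes 6.63% passed, so 0 of 6 does not set this role apart. Chd7, the remodeller mutated in CHARGE syndrome, was farthest from 0 at 0.88 ± 0.09, with probes at 1.45 and 0.32. Chd1l, a remodeller activated by poly(ADP-ribose), stood at 0.79 ± 0.05 and Chd9 at 0.49 ± 0.02. Chd6 (0.16 ± 0.07), Chd1 (-0.07 ± 0.30) and Chd8 (-0.25 ± 0.15) lay nearer 0.

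Acetyltransferases and readers of acetylated histones gave 1 higher gene of 17. Kat2b, the acetyltransferase PCAF, read 1.60, 1.21, 1.60, 1.67 and 1.68, with array 2 below the rest, and was 2.93-fold higher (adjusted p = 0.00264, limma). That mean joins probes at 2.81 ± 0.12 and 0.30 ± 0.42, and with the lower probe alone the gene did not pass. The dip on array 2 came from the lower probe, at -0.42 there, while the higher probe read 2.85. The annotation ties the lower probe, and not the higher one, to a RefSeq transcript. Most member probes lack such a tie, among them those of H2bc4, Cbx7 and Hmgn1, so its absence does not single out the higher probe. Kat2a, the paralogue of Kat2b, stood at 0.10 ± 0.14. Kat6a, an acetyltransferase of the MYST family, was the least repeatable member by its SD, with 0.09, -0.69, -0.24, -1.86 and -1.95 on arrays 1 to 5. Its arrays 4 and 5 lay below the other arrays, and the mean of -0.93 ± 0.93 describes neither set. The other MYST genes, Kat5 (0.25 ± 0.06), Kat6b (-0.07 ± 0.33), Kat7 (-0.28 ± 0.05) and Kat8 (0.14 ± 0.10), did not pass. The ING genes, whose PHD fingers bind methylated histone H3, ran from Ing1 at -0.38 ± 0.08 over Ing4 at 0.09 ± 0.09 to Ing5 at 0.50 ± 0.18 and Ing3 at 0.56 ± 0.06. Bromodomain genes ran from Brd9 at -0.53 ± 0.04 to Brd8 at 0.48 ± 0.08, with Brd1, Brd2, Brd3 and Brd7 between them.

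Histone lysine methyltransferases were the largest role with no call: 0 of 20 passed limma's 2-fold test. At an unadjusted p under 0.05 it was also 0. With 6.63% of all genes called, 0 of 20 lies near the background. Setdb1, which writes the silencing mark at retroelements, was farthest from 0 at 1.01 ± 0.09, from probes at 1.96 and 0.06. The MLL family ran from Kmt2b at -0.11 ± 0.09 and Kmt2e at -0.05 ± 0.05 to Kmt2c at 0.55 ± 0.11 and Kmt2a at 0.65 ± 0.11. The dimethyltransferase partners Ehmt1 and Ehmt2 stood at 0.33 ± 0.04 and -0.38 ± 0.09. Setd2, which methylates histone H3 along transcribed genes, stood at -0.30 ± 0.03, and Setd6 was the lowest of the role at -0.68 ± 0.04. The other 11 genes ranged from -0.26 for the muscle gene Smyd1 to 0.31 for Setd7.

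Of 7 arginine methyltransferases, 1 was lower. Prmt2 read -1.13, -1.16, -1.27, -1.19 and -1.28, or 2.30-fold lower in retina at -1.20 ± 0.07 (adjusted p = 0.00577, limma). Prmt1, the main asymmetric arginine methyltransferase, stood at -0.81 ± 0.08 and did not pass, and Prmt2 minus Prmt1 was -0.42 to -0.37 over the arrays. Prmt8 (-0.19 ± 0.06), Prmt3 (-0.18 ± 0.08), Prmt9 (-0.17 ± 0.03) and Prmt5 (-0.06 ± 0.06) lay slightly below 0, and Prmt7 (0.21 ± 0.07) above it.

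Kdm2b was the only one of 10 measured lysine demethylases to pass, and it had the lowest ratio of all members. Kdm2b, which recruits a variant PRC1 to CpG islands, read -2.01, -1.91, -1.88, -1.93 and -1.69, with array 5 nearest to 0. Its mean of -1.88 ± 0.12 was 3.69-fold lower in retina (adjusted p = 2.8e-05, limma). Kdm3a, a demethylase induced by low oxygen, read 1.01 to 1.09 at a mean of 1.05 ± 0.04 and did not pass (adjusted p = 0.564, limma). Kdm4c stood at 1.05 ± 0.17 and Kdm7a at 0.98 ± 0.08, each from probes that disagreed. The demethylases of the KDM5 family stood at 0.49 ± 0.03 (Kdm5a), 0.36 ± 0.04 (Kdm5b), 0.12 ± 0.05 (the X-linked Kdm5c) and -0.03 ± 0.10 (the Y-linked Kdm5d). Kdm6a, which removes the Polycomb mark, stood at 0.30 ± 0.06, and Kdm4a ranged too widely for a direction, at -0.28 ± 0.44.

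Among 11 PHD finger genes, 2 were lower. Phf6, an X-linked gene mutated in Börjeson-Forssman-Lehmann syndrome, read -1.34, -1.27, -1.23, -1.15 and -1.14 (mean -1.23 ± 0.08, adjusted p = 0.00673, limma). Phf20l1, a reader of methylated lysine, read -1.50, -1.17, -1.20, -1.40 and -1.09, a mean of -1.27 ± 0.17 close to the threshold (adjusted p = 0.0448, limma). Its call was lost without array 1, 2, 3 or 4, with adjusted p-values of 0.0715 to 0.171, and its probes stood at -2.15 and -0.39. The related Phf20 stood at -0.18 ± 0.07 over 4 probes. Phf14 (-0.16 ± 0.10), the splicing factor subunit Phf5a (-0.11 ± 0.07), Phf13 (-0.03 ± 0.10), the SWI/SNF subunit Phf10 (0.00 ± 0.07), Phf7 (0.09 ± 0.05), Phf3 (0.11 ± 0.04), Phf23 (0.32 ± 0.06) and Phf11d (0.32 ± 0.09) lay within 2-fold.

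**Figure D3:**
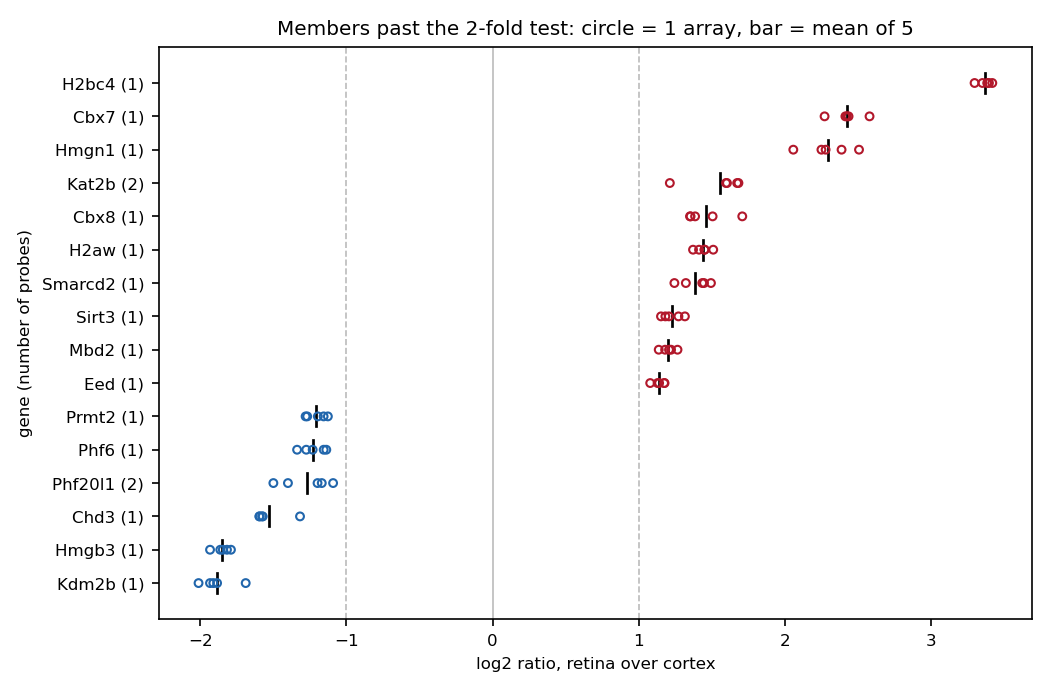
Log2 ratio on each of the 5 arrays (circles, x axis) and their mean (bar) for the 16 members past the 2-fold test, with the number of probes in brackets on the y axis. Array 5 stands apart for Chd3 at -1.32 and array 2 for Kat2b at 1.21, while the 5 circles of H2bc4 lie between 3.29 and 3.42.

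Most passing members were read by a single probe. Of 92 members with 1 probe, 14 passed the 2-fold test, or 15.2%, and of 54 members with several probes 2 passed, or 3.70%. Over all genes the shares were 7.35% of 6712 genes with 1 probe and 4.31% of 2086 genes with several, and the difference between these shares was not tested. Kat2b and Phf20l1 were the 2 passing members with several probes, and in neither did every probe pass when probes were tested one by one. In 5 members a probe passed while the gene did not. They were Setdb1 (probes at 1.96 and 0.06), Kdm4c (2.08 and 0.02), Kdm7a (1.77, 1.33 and -0.15), Chd7 (1.45 and 0.32) and Smarca1 (-1.47 and -0.66). Kdm7a, with 3 probes, stood at 1.33 and passed when its median probe was taken in place of the mean. The probes of 21 members differed in sign, and in 4 of them by over 1 log2, namely Arid1b, H3f3b, Kdm7a and Setdb2. The probes may report different transcripts or transcript ends of a gene, which was not tested.

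**Figure D4:**
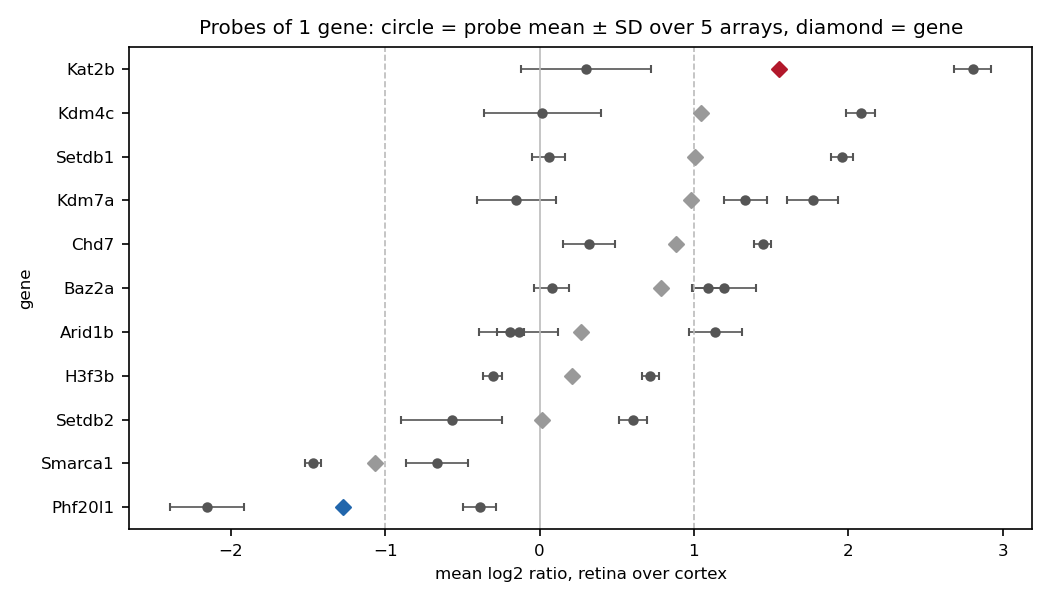
Mean ± SD of each probe over 5 arrays (circles, x axis) and the gene's mean (diamond; red higher, blue lower, grey not passed) for the 11 members whose probes lay over 1 log2 apart or of which a probe but not every probe passed the 2-fold test. The probes of Kat2b lie farthest apart, at 0.30 and 2.81.

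Near the threshold, 7 members had a mean beyond 2-fold without passing: H1f8, Hdac1, Kdm3a, Kdm4c, Setdb1, Smarca1 and Smarce1. The passing members nearest to the line were Eed at 1.14 and Mbd2 at 1.20 above 0, and Prmt2 at -1.20 and Phf6 at -1.23 below it. Of 8 members on the X chromosome, 2 were lower (Hmgb3 and Phf6), none was higher and 6 had a mean below 0. Among all 307 measured X-linked genes, 29 were lower and 3 higher.

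Genes of dividing cells were measured beside these members, since newborn cortex still holds dividing cells. Of 19 such genes 18 were measured, and 3 were lower (Mcm6 at -1.82, Rrm2 at -1.80 and Birc5 at -1.25), or 16.7%. Over all genes 3.83% were lower. A mean below 0 was found for 17 of the 18, against 4449 of all 8798 genes. The median of the 18 was -0.45, and Mcm2 stood above 0 at 0.83. The part of dividing cells in the ratios of Hmgb3, Kdm2b and the other lower members was not tested.

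Other chromatin genes that the symbol rule does not take were read from a list. Of 134 listed genes 89 were measured, with a median of -0.01. The 2-fold test was passed by 4 of them, 1 higher and 3 lower, or 4.49%. Over all genes the share was 6.63%, with 2.8% higher and 3.83% lower. Dpf3, a SWI/SNF subunit that reads acetylated histones, stood at 1.95 ± 0.08 or 3.87-fold higher in retina. L3mbtl3, a reader of methylated lysine, stood at -1.48 ± 0.07, Banf1, which bridges DNA to the nuclear envelope, at -1.21 ± 0.06, and the SWI/SNF subunit Bcl7c at -1.14 ± 0.07. The Bcl7c call was lost without array 1, 3, 4 or 5, with adjusted p-values of 0.071 to 0.159 in limma. Partners of the Polycomb chromobox genes in PRC1 did not pass, with Ring1 at 0.57 ± 0.26, Bmi1 at 0.11 ± 0.15, Phc1 at -0.10 ± 0.07 and Rnf2 at -0.41 ± 0.13. Of the NuRD partners Gatad2a stood at 0.36 ± 0.11, Gatad2b at -0.32 ± 0.10 and Rbbp4 at -0.42 ± 0.08.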

How the data were processed

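Adult retina and newborn cortex of mice were compared on 5 two-colour arrays. The authors deposited 1 column of signed values per array for 21446 probes, read here as log10 ratios, since values stop at 2 and -2. The sources used here do not give the background correction, dye normalization or software. Column medians lay between -7.32e-05 and 0, so the columns stand centred by an unknown method. Multiplying by 3.32 turned them into log2 ratios, and an exact 0 (174 to 1068 per array) was read as no value. Probes with 1 annotated symbol were named by gene identifier through RefSeq (GRCm38.p6): 11782 of 21446 probes, while 559 had several symbols and 9074 were not listed. A gene's value was the mean over probes for which no array lacked a value. The tests used lmFit and treat of limma 3.58.1 under R 4.3.3 (minimum log2 ratio 1) and, against 0, by eBayes, two-sided, with Benjamini-Hochberg adjustment over 8798 genes. The procedure was tested on simulated data with independent errors and no effect of pool or dye, so that test does not bear on either. Spot intensities were not used here, so a ratio near 0 cannot be told apart from little signal in both tissues. The number of arrays also limits the precision.

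Members, roles and lists were chosen with earlier results of these data known. All passing members are named, with every member of the histone, HMG, HP1 and DNA methyltransferase families, the member farthest from 0 of each role without a call, and members whose probes differ in sign by over 1 log2. The other members, and pairs of relatives, were chosen after their values were seen. Alternatives changed the centring, the scaling, the treatment of missing values, the rule for joining probes, the log base, array weights, the minimum fold, limma's prior and the arrays included.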

Additional observations from a re-analysis of the deposited data

Results flagged for a closer look

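One array stood apart in 11 of 150 genes examined, where chance alone would mark about 5%. Array 5 stood apart for Chd3 (-1.32, others -1.60 to -1.57) and Hdac5 (1.03, others 0.61 to 0.71). Array 2 stood apart for Kat2b (1.21, others 1.60 to 1.68), Kdm5a (0.54, others 0.46 to 0.48), Smarcad1 (-0.96, others -0.55 to -0.44), Smarcd1 (-0.62, others -0.02 to 0.05) and Smyd4 (-0.62, others 0.05 to 0.21). On array 4 it was Arid4a (0.058, others 0.23 to 0.29), Chd7 (1.04, others 0.82 to 0.88) and Kat5 (0.14, others 0.27 to 0.29), and on array 3 Smarcal1 (0.073, others 0.27 to 0.29).

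Probes annotated with several symbols, of which 1 or more would meet the rule, entered no comparison. Of 20 such probes 19 had a value on all arrays, and 3 passed limma's 2-fold test, all 3 lower in retina. Among all genes 6.63% passed, and no share was taken over all probes with several symbols. The genes of these 3 probes are not named because the probe does not tell them apart.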

How the results depend on the processing

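With each array in turn left out, 14 to 16 members passed the 2-fold test (9 to 10 higher, 5 to 6 lower), as did 3 to 4 other chromatin genes, 105 to 112 member genes against a ratio of 0 passed, and 14 of the 16 calls were kept each time. The reading of exact 0 as a ratio of 0 and the use of arrays 2, 3 and 5 alone were chosen after seeing the data. With arrays 2, 3 and 5 alone, which hold fewer values, 9 members passed (6 higher, 3 lower), without Eed, Kat2b, Mbd2, Phf20l1, Phf6, Prmt2 and Sirt3, and 2 other chromatin genes passed. With arrays scaled to equal spread, Eed, Phf20l1, Phf6 and Prmt2 were lost, leaving 9 higher and 3 lower, so 75% of calls were higher against 62.5%; the cause was not tested. A minimum of 1.5-fold, which is a lower bar, gave 31 members, 20 higher and 11 lower. Deposited values read as log2 left 0 members (0 higher, 0 lower) and 0 other chromatin genes by limma, also at an unadjusted p under 0.05, so every call rests on the log base. The alternative probe rule took the median probe, and of 2 probes the lower one, which by construction favours lower ratios: Kat2b then lost its call at 0.30, Smarca1 gained one at -1.47 and Phf20l1 moved to -2.15, each of which is the value of its lower probe. The other 63 alternative counts stayed within 1.5 times those reported. Of 2250 gene values, 46 lost and 17 gained a call, and none of the called ones changed sign. The sign changed in 32 values of genes without a call, whose reported means were at most 0.33 in size. The value after the change could be larger, as for Setdb2, reported at 0.02 and at -0.57 with its median probe. Each array carried both tissues, so every ratio already pairs them, and no further pairing was possible because all arrays form 1 group.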
